A study of Homo sapiens with 9 samples.

Results

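The MYC, MAX and MXD network is a family of transcription factors that dimerise through a helix-loop-helix and leucine zipper and bind DNA at E-boxes. Its members were taken by gene symbol from a list of 10 genes (MYC, MYCL, MYCN, MAX, MXD1, MXD3, MXD4, MXI1, MNT and MLX). All 10 were among the 35762 gene symbols of the estimated count table and among the 15345 genes that passed the filter on low counts and were tested. The cells were TYUC-1, a human cancer cell line labelled as neuroendocrine esophageal carcinoma and grown in suspension. Libraries were made from poly-A RNA on day 0, day 3 and day 6 of exposure to EPZ-6438, an inhibitor of EZH2, the catalytic subunit of Polycomb repressive complex 2, with 3 libraries per day. The labels give EPZ-6438 for every library, the protocol names 2 uM of it or DMSO, and the sources do not say what the cells of day 0 were given. Because later days had no vehicle control among the libraries analysed here, exposure and days in culture cannot be told apart. All libraries come from 1 cell line, so p-values measure only the spread between its libraries.

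MYC, MYCL and MYCN are the 3 activating paralogs, and each needs MAX as its partner to bind the E-box CACGTG. The MXD proteins (MXD1, MXD3, MXD4 and MXI1) and MNT compete for MAX and recruit SIN3 and histone deacetylases to the same sites, so they oppose the MYC proteins. MLX is a second hub, which pairs with the glucose-responsive factors MLXIP (MondoA) and MLXIPL (ChREBP), and also with MNT and some MXD proteins. MYC itself is known for driving ribosome production, nucleotide synthesis and proliferation, and MYCN is best known from neural and neuroendocrine tumours.

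The short E-box CACGTG, the network's own binding sequence, was searched in the promoter windows of the members (RefSeq, GRCh38.p14, 250 bases before to 50 after each annotated start). There were 12 windows for 9 members, MYC not among them. The motif was in 3 of the 12, and in 7.26% of all 35116 windows. By gene it was in 3 of 9 members, and in 12.3% of the 11321 tested genes with a window. The match lay 238 bases before the start in MXD4, 193 bases before it in MNT and 50 bases before it in MLX. These stretches are shown because the proteins made by all 3 genes take part in binding that same sequence, and the capitals mark the E-box, which reads the same on both strands.
MXD4 (chr4:2262322-2262359, minus strand): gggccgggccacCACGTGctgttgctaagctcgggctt
MNT (chr17:2401228-2401273, minus strand): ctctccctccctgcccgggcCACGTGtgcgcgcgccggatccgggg
MLX (chr17:42567030-42567075, plus strand): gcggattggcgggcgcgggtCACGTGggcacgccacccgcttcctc
A match is a description of the letters and not evidence of binding, and no match in the other windows says only that these letters are not there.

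The promoter of MYCN, the member with the largest change, is shown for its 250 bases before the start. The capitals mark a run in which TTTGGCGC on the shown strand overlaps TTTCGCGC on the opposite strand, sequences of the kind that E2F factors bind. Either sequence on either strand occurs in 1.15% of all windows and in no other member window. This motif was chosen for the search after the MYCN sequence had been read.
MYCN (chr2:15940300-15940549, plus strand): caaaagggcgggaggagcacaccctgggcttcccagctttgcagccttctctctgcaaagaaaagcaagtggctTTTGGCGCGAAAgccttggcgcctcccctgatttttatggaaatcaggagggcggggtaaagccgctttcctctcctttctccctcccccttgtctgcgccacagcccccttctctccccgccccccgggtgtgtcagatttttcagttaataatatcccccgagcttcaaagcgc

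Libraries held between 21638874 and 31235055 estimated counts, and levels are given in CPM (counts per library size after TMM scaling). On this scale 3 counts, the upper limit that a count of 0 allows, corresponded to 0.098 to 0.141 CPM. Across 11041 genes the day 0 library of replicate 2 (called D0_2, from day 0 and replicate 2, with the others named likewise) stood apart, with a mean correlation of 0.978 with the other day 0 libraries, against 0.987 for each of those and 0.992 to 0.997 for the libraries of the later days. The means of D0_1 and D0_3 include their correlation with D0_2, and these libraries correlated at 0.996 with each other. Of 13 markers listed for neuroendocrine tumour cells, CHGA was at 0 in all 9 libraries. POU2F3, a tuft cell factor included in that list, averaged 285 CPM on day 0 and made up much of its summed level, which was 527 to 572 CPM on day 0, 550.1 to 563 CPM on day 3 and 490.3 to 515 CPM on day 6. The summed level of 10 squamous markers was 62.2 to 64.3 CPM on day 0, 104 to 112 CPM on day 3 and 139.9 to 166 CPM on day 6. Most of it was TRIM29, which averaged 49.4, 87.5 and 117 CPM on days 0, 3 and 6. Against day 0, 4 of 6 tested squamous markers were higher and 2 (KRT5 and SPRR1B) lower on day 3. On day 6 all 6 were higher. Of all genes tested, 22.5% were higher and 18.1% lower on day 3, and 28.9% were higher on day 6. Over the alternative fits, as few as 2 squamous markers were higher on either day. TP63 and SOX2 were near the floor on day 0, at means of 0.063 and 0.052 CPM. Of the markers of other cell types, THY1 (fibroblasts), CLDN5 (endothelium) and MS4A1 and NKG7 (lymphocytes) were at 0 in all libraries, and the leukocyte sum of 328 to 644 CPM was nearly all LYZ. Against day 0, both later days had higher levels of 3 of 4 tested fibroblast markers (COL1A1, PDGFRA and PDGFRB). The share of all genes tested was 22.5% on day 3 and 28.9% on day 6. Over the alternative fits the fibroblast count was as low as 1 on each day. COL1A1 averaged 0.492, 3.6 and 9.53 CPM on days 0, 3 and 6, and the whole list summed to 55.4 to 60.1 CPM on day 0, 78.0 to 83.8 CPM on day 3 and 73.7 to 80.8 CPM on day 6. Levels of 3 of 4 tested endothelial markers (VWF, TEK and EGFL7) were also higher on both later days, and as few as 2 over the alternative fits. That list summed to 11.2 to 14.7, 27.8 to 28.3 and 33.2 to 38.8 CPM on days 0, 3 and 6. The part of a change in cell makeup in the results below was not tested, and in bulk RNA fewer cells of a type cannot be told apart from less RNA per cell. EZH2 transcripts averaged 193 ± 3.95, 167 ± 2.34 and 150.3 ± 8.46 CPM on days 0, 3 and 6 (SD, n = 3), which does not measure inhibition of the enzyme.

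Differences between days were tested by edgeR's quasi-likelihood method over all 15345 genes, with log2 fold changes of the later day over the earlier and a Benjamini-Hochberg adjusted p under 0.05 as the threshold. On day 6 against day 0, 8 of the 10 members passed, 5 higher (MYC, MYCL, MYCN, MXD3 and MXD4) and 3 lower (MAX, MLX and MXD1), where 54.6% of all genes tested did, 28.9% higher and 25.7% lower. On day 3 against day 0, 5 of 10 passed, MYCL, MYCN and MXD4 higher and MAX and MLX lower, against 40.6% of all genes, 22.5% higher and 18.1% lower. Between day 6 and day 3 only MYCN and MXD4 passed, both higher, against 16.3% of all genes, 11.5% higher and 4.76% lower. The libraries of the 2 days did not overlap for 8 members on day 6 against day 0 (58.7% of all genes), for 7 on day 3 against day 0 (53.8%) and for 8 on day 6 against day 3 (43.5%). The median log2 fold change of the members was 0.26 on day 6 and 0.10 on day 3 against day 0, where that of all genes was 0.01 in both. Without D0_2 the counts were 10 of 10 on day 6, 8 of 10 on day 3 and 6 of 10 between day 6 and day 3. Calls over all genes also rose in that fit, to 9496, 7289 and 4681 of 15620 tested. Between day 6 and day 3 only 1 member, MYCN, passed without each of D3_1, D3_2, D3_3, D6_1 and D6_3.

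**Figure D1:**
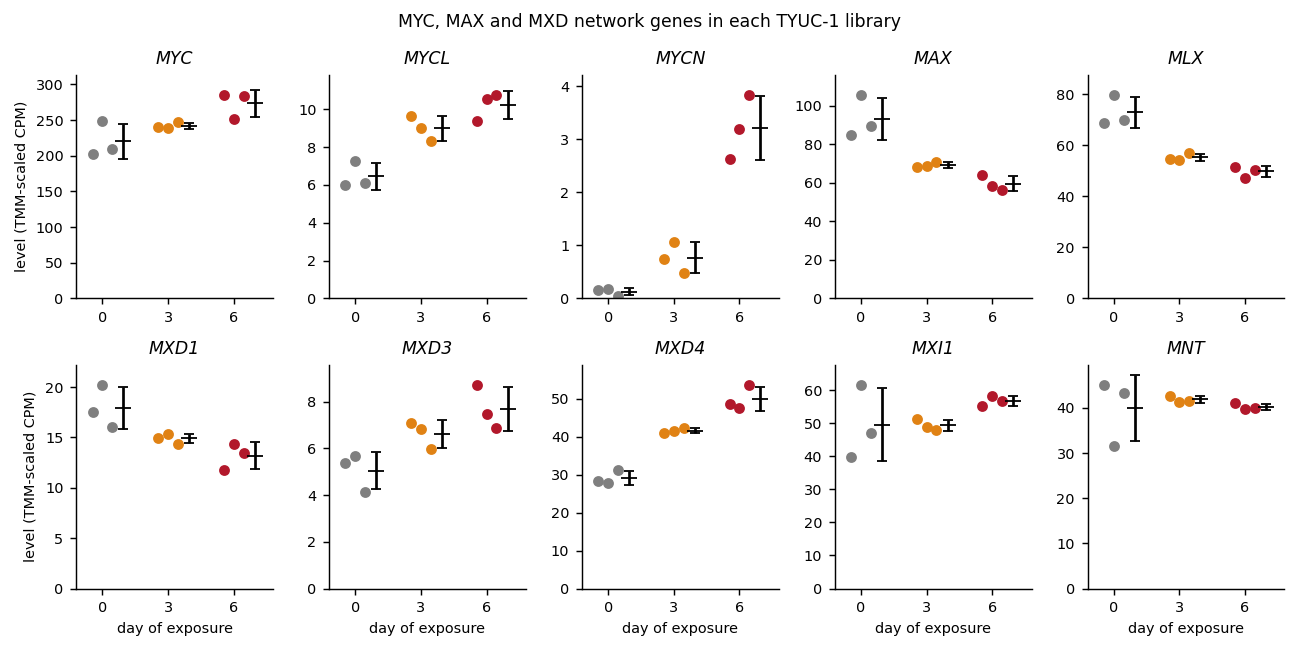
Level of each network gene (vertical axis, TMM-scaled CPM from 0, a separate scale per gene) by day of exposure; points are libraries in the order of their replicate numbers and black marks are the mean and SD of 3 libraries. MYCN lay at 2.62 to 3.83 CPM on day 6, against 0.047 to 0.17 CPM on day 0, while MAX and MLX were lower on both later days than in any day 0 library.

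MYCN showed the largest change of the network (ENSG00000134323.11, chromosome 2, 15940564 to 15947007, plus strand, GRCh38). It had 5, 4 and 1 counts in the day 0 libraries, 20, 32 and 11 on day 3 and 78, 74 and 89 on day 6. In CPM these were 0.163, 0.17 and 0.047 on day 0, 0.746, 1.07 and 0.478 on day 3 and 2.62, 3.19 and 3.83 on day 6. Every library of a later day lay above every library of the earlier days. The pooled counts on day 3 were 5.96 times those of day 0 per library size (exact 95% interval 3.04 to 13.0, counting error only), those on day 6 were 23.9 times those of day 0 (12.8 to 50.4), and those on day 6 were 4.0 times those of day 3 (3.02 to 5.37). The fitted log2 fold changes were 2.52 on day 3 (SE 0.46, adjusted p = 0.0013), 4.55 on day 6 (SE 0.40, adjusted p = 2.33e-06) and 2.04 between day 6 and day 3 (SE 0.30, adjusted p = 0.000613). These 3 calls were kept in each of the 17 alternatives that tested the gene. MYCN has an annotated antisense partner, MYCNOS, which was not analysed here, and without strand its reads cannot be told apart from those of MYCN.

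MYC had the highest level per transcript length of all members on every day and rose by day 6 (ENSG00000136997.17, chromosome 8, 127735434 to 127741434, plus strand). Its level was 203, 249 and 209 CPM on day 0, 240, 238 and 247 CPM on day 3 and 285, 252 and 284 CPM on day 6. The day 6 libraries lay above all day 0 libraries, with D6_2 only just above D0_2, while those of day 3 overlapped those of day 0. The log2 fold change was 0.31 on day 6 (SE 0.09, adjusted p = 0.0107) and 0.13 on day 3 (95% interval -0.06 to 0.33, adjusted p = 0.253). The call on day 6 was lost without D6_1 (adjusted p = 0.0569) or D6_3 (0.0508), in a range of 0.0001 to 0.0569 over 18 alternatives. Without D0_2 the day 3 level passed as well (log2 fold change 0.23, adjusted p = 0.0106), as it did with library size as the only scaling (0.0299), in a range up to 0.559. Between day 6 and day 3 the difference of 0.18 did not pass (95% interval -0.02 to 0.37, adjusted p = 0.217). It passed without D0_2 (0.0318) and in a fit of only those days (0.0443), in a range up to 0.462.

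MYCL, the paralog first found in small cell lung cancer, rose on day 3 and stayed higher (ENSG00000116990.10, chromosome 1, 39895426 to 39902256, minus strand). It was at 5.98, 7.27 and 6.11 CPM on day 0, 9.66, 9.0 and 8.35 CPM on day 3 and 9.38, 10.6 and 10.8 CPM on day 6. All libraries of days 3 and 6 lay above all of day 0, and those of days 3 and 6 overlapped. The log2 fold change was 0.48 on day 3 (SE 0.12, adjusted p = 0.00626) and 0.66 on day 6 (SE 0.12, adjusted p = 0.000449). Between day 6 and day 3 it was 0.18 (95% interval -0.06 to 0.43, adjusted p = 0.327).

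MAX, the obligate partner of the MYC proteins, fell on both later days (ENSG00000125952.18, chromosome 14, 65006174 to 65102695, minus strand). Its level was 84.9, 106 and 89.2 CPM on day 0, 67.9, 68.5 and 70.9 CPM on day 3 and 63.9, 58.4 and 56.4 CPM on day 6. The libraries of the 3 days did not overlap. The log2 fold change was -0.43 on day 3 (SE 0.09, adjusted p = 0.00271) and -0.65 on day 6 (SE 0.09, adjusted p = 8.56e-05), a fold of 0.639. The calls on day 3 and day 6 were kept in all 18 alternatives. The further difference between day 6 and day 3 was -0.21 (95% interval -0.41 to -0.02) and did not pass (adjusted p = 0.139), but did without D0_2 (0.0127) and in a fit of only those days (0.0191), in a range up to 0.323. FNTB lies on the opposite strand within the MAX locus and is expressed, at 1043 to 1728 counts a library.

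MLX, the hub of the Mondo branch, also fell on both later days (ENSG00000108788.11, chromosome 17, 42567068 to 42573239, plus strand). It was at 69.0, 79.8 and 70.1 CPM on day 0, 54.7, 54.3 and 56.9 CPM on day 3 and 51.7, 47.4 and 50.3 CPM on day 6, with no overlap between days. The log2 fold change was -0.40 on day 3 (SE 0.08, adjusted p = 0.00178) and -0.55 on day 6 (SE 0.08, adjusted p = 9.27e-05), and both calls were kept in all 18 alternatives. Between day 6 and day 3 the difference of -0.15 did not pass (95% interval -0.32 to 0.02, adjusted p = 0.231), except without D0_2 (0.0487), in a range up to 0.47. PSMC3IP, on the opposite strand, overlaps the MLX locus and had 309 to 687 counts a library.

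The antagonists moved in different directions. MXD4 (ENSG00000123933.16, chromosome 4, 2247432 to 2262294, minus strand), whose product is associated with differentiating cells, was at 28.4, 27.8 and 31.1 CPM on day 0, 41.0, 41.6 and 42.4 CPM on day 3 and 48.7, 47.7 and 53.6 CPM on day 6. Its libraries did not overlap between days, and the log2 fold change was 0.52 on day 3 (SE 0.08, adjusted p = 0.000323) and 0.78 on day 6 (SE 0.08, adjusted p = 5.54e-06). Between day 6 and day 3 it was 0.26 (SE 0.08, adjusted p = 0.0328), a call that was lost without D3_1 (0.12), D3_2 (0.122), D3_3 (0.0976), D6_1 (0.0757) or D6_3 (0.129) and with no filter on low counts (0.0714), in a range from 0.00594.

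MXD3 (ENSG00000213347.10, chromosome 5, 177301461 to 177312757, minus strand) differs from the other MXD genes in being known as a gene of proliferating cells. It was at 5.36, 5.66 and 4.14 CPM on day 0, 7.08, 6.83 and 5.96 CPM on day 3 and 8.71, 7.46 and 6.89 CPM on day 6, with the later days above day 0 and overlapping each other. The log2 fold change was 0.60 on day 6 (SE 0.15, adjusted p = 0.004). On day 3 it was 0.39 (SE 0.15, adjusted p = 0.0522), and it passed in 4 of 18 alternatives, among them the fit without D0_2 (0.0203), in a range up to 0.165. RAB24 and PRELID1 overlap its locus, so its count is uncertain.

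MXD1 (ENSG00000059728.10, chromosome 2, 69897688 to 69942945, plus strand), classically a gene of terminal differentiation, went the other way. It was at 17.6, 20.2 and 16 CPM on day 0, 14.9, 15.4 and 14.4 CPM on day 3 and 11.8, 14.4 and 13.5 CPM on day 6. All day 3 and day 6 libraries lay below all day 0 libraries. The log2 fold change was -0.45 on day 6 (SE 0.11, adjusted p = 0.00395) and -0.27 on day 3 (SE 0.11, adjusted p = 0.0631), where it passed only without D0_3 (0.032), in a range up to 0.172. SNRNP27 overlaps its locus on the same strand, so its count is uncertain.

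MXI1 and MNT did not pass in any comparison with all libraries and TMM scaling, and for both D0_2 held the extreme value. MXI1 (ENSG00000119950.20, chromosome 10, 110207605 to 110287365, plus strand) was at 39.9, 61.5 and 47.1 CPM on day 0, 51.2, 49.0 and 48.0 CPM on day 3 and 55.3, 58.4 and 56.7 CPM on day 6. Its log2 fold change on day 6 was 0.20 (95% interval -0.07 to 0.47, adjusted p = 0.2), and without D0_2 it was 0.38 and passed (adjusted p = 0.000378), as it did with library size only (0.0299), in a range up to 0.671. On day 3 it was 0.00 (95% interval -0.28 to 0.27, adjusted p = 0.996), and 0.18 without D0_2 (adjusted p = 0.0484). Between day 6 and day 3 it was 0.20 (95% interval -0.07 to 0.47, adjusted p = 0.333). This difference passed without D0_2 (0.03) and in a fit of only those days (0.0175), in a range up to 0.547. MNT (ENSG00000070444.14, chromosome 17, 2384060 to 2401118, minus strand), the broadly expressed antagonist, was at 45.1, 31.5 and 43.3 CPM on day 0, 42.8, 41.4 and 41.5 CPM on day 3 and 41.1, 39.8 and 40.0 CPM on day 6. Its log2 fold change on day 6 was 0.01 (95% interval -0.24 to 0.26, adjusted p = 0.941), and without D0_2 it was -0.14 (adjusted p = 0.0489), and its sign also turned without D6_1. On day 3 it was 0.07 (adjusted p = 0.667), and -0.083 without D0_2. The SD over libraries was 1.65 CPM for MXI1 and 0.752 CPM for MNT on day 3, against 11 CPM for MXI1 and 7.36 CPM for MNT on day 0.

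**Figure D2:**
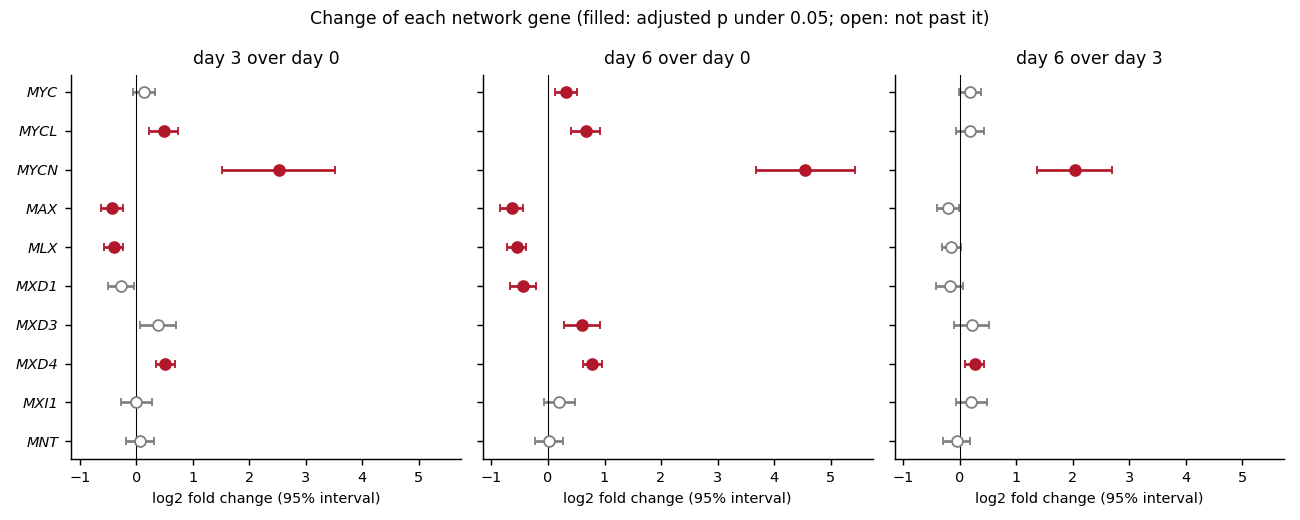
Log2 fold change of each network gene (horizontal axis, the same in all panels) with its 95% interval, for day 3 over day 0, day 6 over day 0 and day 6 over day 3; filled red points passed an adjusted p of 0.05 and open grey points did not. MYCN lies far to the right at 2.52, 4.55 and 2.04, and all other members lie between -0.65 and 0.78.

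To compare genes with each other, levels were divided by the length of the longest basic coding transcript of each gene in GENCODE 29, in CPM per kb, which only approximates the transcripts that the cells use. On day 0 the order was MYC (93.1 ± 10.5), MAX (29.5 ± 3.45), MLX (28.2 ± 2.32), MXI1 (14.3 ± 3.18), MNT (8.0 ± 1.47), MXD4 (7.17 ± 0.44), MXD1 (3.21 ± 0.377), MXD3 (2.23 ± 0.355), MYCL (1.98 ± 0.219) and MYCN (0.0487 ± 0.0266; all SD, n = 3). The neighbours MAX and MLX, MNT and MXD4, and MXD3 and MYCL overlapped. By day 6 MXD4 (12.3 ± 0.784) lay above MNT (8.06 ± 0.136) with no overlap, and MXD1 (2.36 ± 0.235) lay below MXD3 (3.39 ± 0.411) and MYCL (3.14 ± 0.229). MYCN remained the lowest on day 6, at 1.24 ± 0.233.

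**Figure D3:**
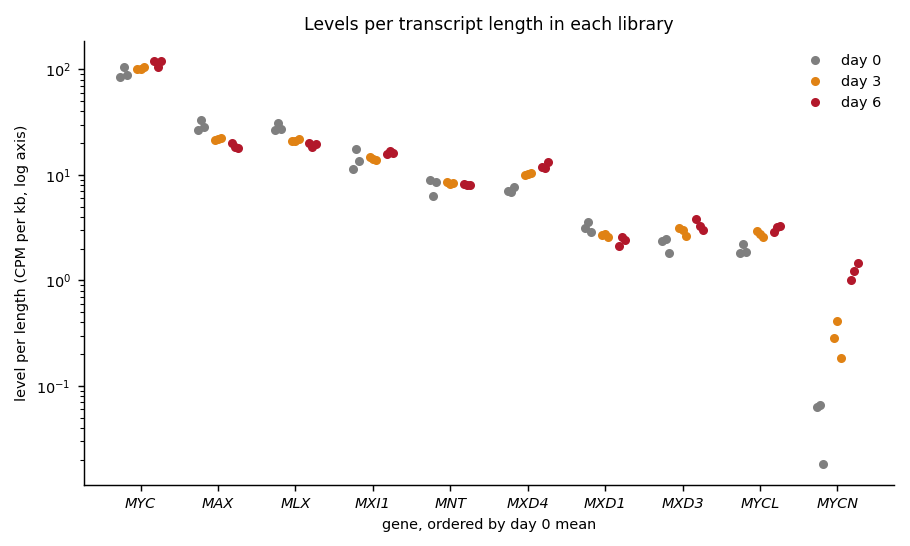
Level per transcript length (vertical axis, CPM per kb, log axis) of the 10 network genes in each library, with genes ordered by their day 0 mean and days side by side in the order 0, 3 and 6. MYC lies highest in every library, and MYCN climbs from the bottom but ends below all other members.

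Within each library the ratio of MYC to MAX does not depend on how libraries are scaled. Per kb it was 3.19, 3.14 and 3.12 on day 0, 4.71, 4.64 and 4.65 on day 3 and 5.96, 5.75 and 6.71 on day 6. The libraries of the 3 days were separate, and D0_2 lay with the other day 0 libraries, since both genes were high in it. Of the summed level per kb of the 3 MYC paralogs, MYCN made up 0.02% to 0.0716% on day 0, 0.171% to 0.396% on day 3 and 0.81% to 1.18% on day 6, and MYC itself still 95.97% to 96.9% on day 6. Among the 5 antagonists MXD4 made up 18.5% to 22.2% of the summed level per kb on day 0, 25.8% to 27.6% on day 3 and 27.7% to 30.7% on day 6, while MXD1 made up 8.3% to 9.77%, 6.82% to 7.16% and 5.0% to 6.06%. These shares are descriptions, without a test.

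Of the direct partners of MLX, MLXIPL rose on both later days. The gene, which encodes ChREBP, averaged 15.1 ± 0.949, 41.4 ± 5.82 and 56.6 ± 5.56 CPM on days 0, 3 and 6 (log2 fold change 1.90 on day 6, SE 0.11, adjusted p = 8.75e-08). MLXIP did not pass, with log2 fold changes of 0.06 on day 3 and -0.14 on day 6, nor did MGA, the MAX partner with a T-box domain (-0.11 and -0.23). Of 13 tested genes known as targets of the Mondo proteins with MLX or of glucose sensing, 6 were higher and none lower on day 6, and 4 were higher on day 3, against 28.9% and 22.5% of all genes tested that were higher. The median log2 fold change of the list was 0.16 on day 6. TXNIP, the inhibitor of thioredoxin and of glucose uptake, averaged 85.0 ± 7.63, 115 ± 6.85 and 154 ± 10 CPM (0.86 on day 6, SE 0.09, adjusted p = 7.14e-06), and its paralog ARRDC4 13.5 ± 2.17, 16 ± 1.06 and 18.4 ± 1.5 CPM (0.45, SE 0.12, adjusted p = 0.00825). PFKFB3 (0.86), a regulator of glycolysis, HBP1 (0.90), a transcriptional repressor, and GPI (0.47) were also higher on day 6, while lipid synthesis genes such as FASN, SCD, ACACA and ACLY did not pass. The sixth, KHK (0.40), was outside the naming rule and is named after its value was seen. Without D0_2 the counts were 7 higher and 2 lower on day 6 and 7 higher and 1 lower on day 3, and without D6_3 1 gene was lower on day 6. The number lower on day 6 was also 1 with median-ratio scaling and with no filter on low counts. It was 1 with the most abundant genes and those of the mitochondrial genome removed, and 2 with DESeq2.

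Genes that MYC is known to activate were mostly lower. Of 32 genes of ribosome production 27 fell and none rose on day 6, and 19 fell and none rose on day 3, against 25.7% and 18.1% of all genes tested that were lower. The median log2 fold change of the list was -0.51 on day 6 and -0.45 on day 3. NOLC1, a nucleolar chaperone, averaged 213 ± 11.8, 147 ± 1.97 and 119.9 ± 4.49 CPM on days 0, 3 and 6 (log2 fold change -0.83 on day 6, SE 0.07, adjusted p = 1.65e-06), and RRS1, needed for the large ribosomal subunit, 33.7 ± 1.77, 21.6 ± 1.08 and 16.7 ± 1.99 CPM (-1.01, SE 0.10, adjusted p = 4.37e-06). DDX21 (-0.94), a nucleolar helicase, and WDR12 (-0.70) were the next by p. The 5 that did not pass on day 6 were FBL, RRP12, PES1, POLR1C and WDR74. Over the alternatives 22 to 29 were lower on day 6 and 17 to 27 on day 3, and 29 and 27 were without D0_2.

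Of 15 tested genes of translation and mitochondrial chaperonin function, 12 fell and none rose on day 6, and 10 fell and 1 (MARS1, 0.31, named after its value was seen) rose on day 3, against 25.7% and 18.1% of all genes tested that were lower. The chaperonin gene HSPD1 averaged 1199 ± 72.5, 634 ± 26.8 and 555 ± 56.9 CPM on days 0, 3 and 6 (log2 fold change -1.11 on day 6), although it has many processed pseudogenes and its count is uncertain. C1QBP (-0.82), EIF2S1 (-0.63), a subunit of the initiation factor that brings in the first tRNA, and the isoleucyl-tRNA synthetase gene IARS1 (-0.55) also fell. Of 31 genes of nucleotide and polyamine synthesis and cell growth 22 fell and 2 rose on day 6, with a median of -0.38, and 14 fell and 1 rose on day 3, where 9 fell without D3_1. Of all genes tested 25.7% were lower and 28.9% higher on day 6, and 18.1% lower and 22.5% higher on day 3. AMD1, of polyamine synthesis, averaged 281 ± 26.9, 173 ± 2.44 and 138 ± 17.4 CPM (-1.03 on day 6, SE 0.10, adjusted p = 5.55e-06), and the transferrin receptor gene TFRC 1205 ± 29.7, 834 ± 21.5 and 682 ± 39.5 CPM (-0.82, SE 0.07, adjusted p = 2.7e-06). The purine synthesis genes PAICS (-0.71) and GMPS (-0.63) fell too. SHMT2 (0.26) and IMPDH1 (0.21), named after their values were seen, were higher on day 6. Without D0_1, D6_1 or D6_3 neither passed, and without D0_3, D3_1, D3_2 or D3_3 only 1 did. The number higher was also 1 with median-ratio scaling, with no filter on low counts and with limma-voom. It was 1 as well in a fit of only days 0 and 6, and with the most abundant and mitochondrial genes removed. Of the rest, CAD, LDHA, CDK4, CCND2 and TERT were among the 7 that did not pass.

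Genes that MYC is known to hold down with its partner MIZ1, or otherwise to repress, were mostly higher. Of 15 tested, 10 rose and 3 fell on day 6 and 10 rose and none fell on day 3, with medians of 0.59 and 0.52, against 28.9% and 22.5% of all genes tested that were higher. NDRG1, a gene of differentiation and stress, averaged 52.0 ± 10.9, 117 ± 9.35 and 389 ± 54.4 CPM on days 0, 3 and 6 (log2 fold change 2.90 on day 6, SE 0.16, adjusted p = 3.86e-08). The cell cycle inhibitor gene CDKN1A averaged 3.17 ± 0.646, 9.35 ± 0.289 and 16 ± 1.7 CPM (2.33, SE 0.14, adjusted p = 9.42e-08), and CDKN1C (2.04) and NDRG2 (1.07) rose as well. The 3 that fell on day 6, named after their values were seen, were GADD45A (-0.59), CDKN2C (-0.44) and ITGB1 (-0.24).

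**Figure D4:**
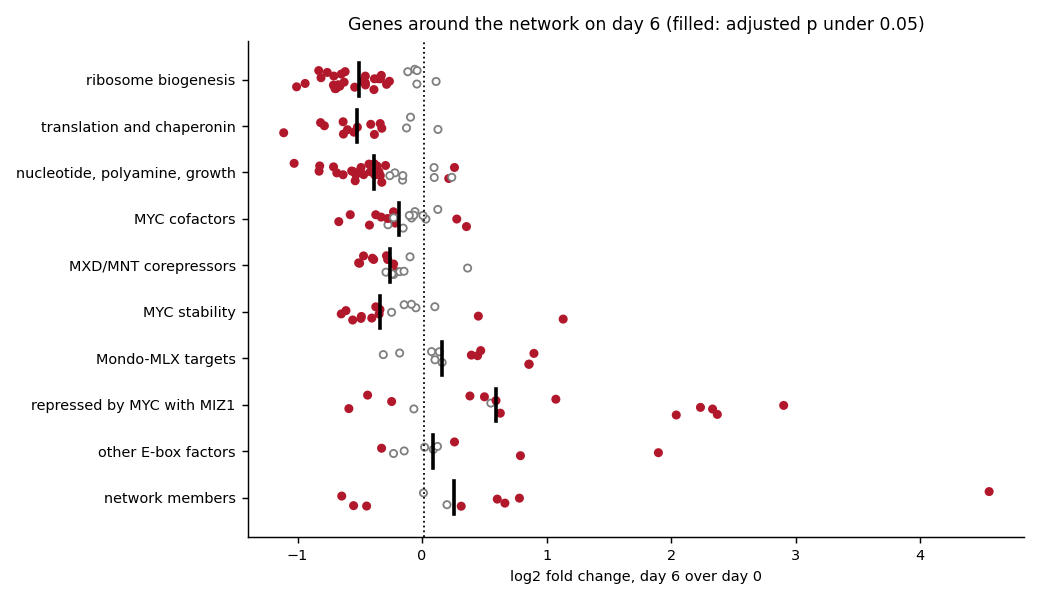
Log2 fold change of day 6 over day 0 (horizontal axis) for each tested gene of the lists around the network (rows), with filled red points past an adjusted p of 0.05, open grey points not past it, and black bars at list medians; the dotted line is the median of all 15345 genes, and the vertical scatter within a row has no meaning. The targets of ribosome production have a median of -0.51 and those repressed by MYC a median of 0.59.

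Cofactors on both sides of the network were counted beside the shares of all genes tested. Of 20 cofactors of MYC 8 fell and 2 rose on day 6, against 25.7% and 28.9% of all genes, and 5 fell and 2 rose on day 3, against 18.1% and 22.5%. SKP2, a ubiquitin ligase subunit that acts with MYC, averaged 248 ± 19.1, 169 ± 6.08 and 156 ± 7.23 CPM on days 0, 3 and 6 (log2 fold change -0.67 on day 6, SE 0.08, adjusted p = 2.13e-05), and WDR5 (-0.58), which anchors MYC on chromatin, AURKA (-0.42), which stabilises MYCN protein, and PAF1 (-0.33) fell. KAT5 and the MIZ1 gene ZBTB17, at 0.36 and 0.28 and named after their values were seen, rose, ZBTB17 only just past the threshold (adjusted p = 0.0484). The counts of cofactors depended on D0_2 and on the processing. Without D0_2, 15 cofactors were lower on day 6 and 12 on day 3, with 1 and 2 higher. In that fit 4538 of 15620 genes tested were lower on day 6 and 3370 on day 3. The number of cofactors lower on day 6 was 4 with library size only, 4 with genes under a mean of 5 CPM removed and 5 in a fit of only those days. In these fits 2659 of 15345, 2862 of 11039 and 3248 of 15044 genes tested were lower, shares close to those of the cofactors. On day 3 the number of cofactors lower was 2 with library size only, 3 without D0_3 and 2 without D3_1 or D3_2. In these fits 1825 of 15345, 2757 of 15702, 1846 of 15599 and 1857 of 15613 genes tested were lower. The number of cofactors higher on day 6 was 1 in 10 of 18 alternatives. These included the fits without each of D3_1, D3_2, D3_3, D6_1 and D6_3, median-ratio scaling and no filter on low counts. They also included a fit of only days 0 and 6, and removal of the most abundant and mitochondrial genes. On day 3 the number higher was 1 without D0_1, D3_1 or D3_3 and 0 without D3_2.

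Of 16 corepressors through which the MXD proteins and MNT act, 9 fell and none rose on day 6 and 7 fell on day 3, against 25.7% and 18.1% of all genes tested that were lower. The histone-binding subunit RBBP4 averaged 466 ± 50.1, 361 ± 9.58 and 328 ± 17 CPM on days 0, 3 and 6 (log2 fold change -0.51 on day 6, SE 0.09, adjusted p = 0.000387), and RBBP7 (-0.50), HDAC2 (-0.40) and SUDS3 (-0.29), which binds SIN3, fell too. On day 3 the count was 3 without D3_1 or D3_2, 4 without D3_3 and 10 without D0_2. With library size only it was 5 on day 6 and 3 on day 3, where 2659 and 1825 of all 15345 genes tested were lower. Of 16 genes that act on the stability of MYC proteins 9 fell and 2 rose on day 6, against 25.7% and 28.9% of all genes tested. FBXW7, the ubiquitin ligase subunit that marks MYC for degradation, averaged 37.0 ± 1.69, 27.7 ± 0.996 and 25.2 ± 1.05 CPM (-0.56, SE 0.07, adjusted p = 6.12e-05), and CIP2A (-0.61) and SET (-0.65), both inhibitors of the phosphatase that destabilises MYC, fell as well. FBXO32 rose (1.13, adjusted p = 1.9e-05), as did TRIM32 (0.45, named after its value was seen). On day 3, 7 of the 16 fell, against 18.1% of all genes tested, and FBXO32 rose (adjusted p = 0.031), a call that was lost in 6 of 18 alternatives, among them those without D0_1, D3_1 or D3_2 (adjusted p up to 0.129), while without D0_2 a second gene passed.

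By pattern over the 9 libraries, the genes most like MYC among 11032 with a mean of at least 5 CPM were RPL13 (Pearson r of log2 CPM 0.986), MYL6B (0.98) and VAMP5 (0.976). RPL13 encodes a ribosomal protein, has processed pseudogenes and so has an uncertain count. It averaged 692 ± 88.1, 771 ± 26.4 and 858 ± 56.5 CPM on days 0, 3 and 6, and D0_2 was high for MYC too, so that the likeness includes variation within day 0. The genes most like MYCN were PHC1 (0.989), a subunit of Polycomb repressive complex 1, PCNX2 (0.987), MCF2L (0.987), KLK6 (0.985) and IL1RAP (0.985). The day 0 levels of MYCN, from 5, 4 and 1 counts, lay below the 0.5 CPM added. How far its ranking depends on that constant was not tested. IL1RAP, the shared subunit of interleukin-1 family receptors, averaged 8.5 ± 0.161, 14.9 ± 0.901 and 33.2 ± 2.71 CPM. These correlations share the libraries and the order of days and are given as descriptions.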

How the data were processed

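The deposited table holds estimated counts per gene symbol for 9 libraries, whole numbers not scaled to a common total. Tools named per the submitters' processing notes are kallisto 0.44.0, bcl2fastq 2.19 and DESeq2, the builds hg38, GRCh38 and GRCm38, none with a stated role. How transcripts were summed and whether strand was used is not stated, and isoforms cannot be separated. The estimated counts were rounded, filtered with filterByExpr (minimum count 10), scaled by TMM and tested by quasi-likelihood (glmQLFit, glmQLFTest) in edgeR 4.0.16 (R 4.3.3), in a single model of the 9 libraries with day as the only term. DESeq2 1.42.0 and limma-voom (limma 3.58.1) were among the alternatives. Simulated counts were used to test the script. Members and gene lists were chosen with earlier results of these data known, lists are described by counts and medians, and 1 list symbol (PHB1) had no match in the table. From each list the text names up to 4 genes past the threshold with the lowest p on day 6 against day 0, and TXNIP and ARRDC4 always. For likeness of pattern it names the 5 genes with the highest correlation with MYC and with the other member of lowest p. Some genes that these rules name are not reported here. The motif TTTGGCGC or TTTCGCGC and genes named outside these rules were chosen after their values or letters were seen. Coordinates are from GENCODE 29 on GRCh38, which 33545 symbols matched, and promoters from RefSeq on GRCh38.p14.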

Additional observations from a re-analysis of the deposited data

How the results depend on the processing

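The changes of MYCN, MYCL, MXD4, MAX and MLX on day 3 and of the 7 called members other than MYC on day 6 against day 0 kept direction and call in every alternative that tested them. The number of members called on day 3 against day 0 was 5 and ranged from 5 to 8 with single libraries left out, where 8 was reached without D0_2. On day 6 against day 0 it was 8, in a range of 7 to 10. For day 6 against day 3 the count of 2 was 1 with no filter on low counts, 1 with a mean of at least 5 CPM, which removes MYCN, and 5 in a fit of only those days, and it ranged from 1 to 6 with single libraries left out. All genes called in that comparison numbered 2497, against 1248 with a mean of at least 5 CPM, 4331 in the fit of only those days, and 1606 (without D3_2) to 4681 (without D0_2) with single libraries left out. The cause was not tested, other than that the stricter filter tests fewer genes. With library size only, the median log2 fold change of all genes was 0.13 on day 6 and 0.09 on day 3 against day 0, so folds of members shift upward by about that much, and the share of called genes that were higher was 66.6% and 69.2%, against 53.0% and 55.3%. No member called with TMM scaling changed direction there.

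Values near 0 changed sign. MXI1 on day 3 against day 0 was at 0.087 with library size only, 0.055 with a mean of at least 5 CPM, 0.023 with limma-voom, 0.000494 in the fit of those days and 0.014 with the replicate block, and ranged from -0.14 to 0.18 with single libraries left out. MNT ranged from -0.083 to 0.16 on day 3 and from -0.14 to 0.11 on day 6 with single libraries left out, and was -0.016 on day 6 with no filter. HDAC2 on day 6 against day 3 was at 0.028 with library size only and 0.026 with a mean of at least 5 CPM, in a range of -0.059 to 0.053 with single libraries left out. Libraries of the same number did not all deviate together (correlations of -0.16 to 0.23), so the numbers were not taken to pair them. With the replicate block 6 members were called on day 3, since MXD3 passed, 8 on day 6 and 2 between day 6 and day 3.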

Other observations

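Of 9 other genes of E-box factors 3 were higher and 1 lower on day 6 than on day 0, against 28.9% and 25.7% of all genes tested. TFEB, a master gene of lysosome production, averaged 3.86 ± 0.127, 5.81 ± 0.335 and 6.68 ± 1.26 CPM on days 0, 3 and 6 (SD, n = 3; log2 fold change 0.79 on day 6, edgeR adjusted p = 0.000769), and its relative TFE3 was 0.26 higher on day 6 (adjusted p = 0.0103). TFAP4, known as a target of MYC, fell by 0.33 on the log2 scale on day 6 (adjusted p = 0.00472), a call that was lost with library size only (0.0519). USF1, USF2 and ARNT did not pass on either day.

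Of 11321 tested genes with a promoter window, 12.3% held CACGTG in at least 1 window. The motif was in 10.7% of the 3227 that were higher on day 6 than on day 0, in 14.1% of the 3184 that were lower and in 12.3% of the 4910 not called. It stood in 13 of 26 ribosome production genes with a window, 10 of 26 of nucleotide and polyamine synthesis and growth, 5 of 15 of translation, 5 of 11 genes known to be repressed by MYC and 3 of 9 Mondo targets. It also stood in 3 of 15 cofactors of MYC, 3 of 11 genes of MYC stability, 1 of 14 corepressors and 0 of 8 other E-box factors. The median log2 fold change of all genes with the motif was -0.08, against -0.01 for those without it. These are descriptions of letters in windows whose base composition also differs between genes.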
